A study of Mus musculus with 12 samples.

Results

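Activity-induced genes are transcribed within minutes to hours after a neuron fires. Calcium and cAMP that enter or form during firing activate kinases that modify factors already bound to DNA, among them CREB and SRF. These switch on early response genes, many of which encode transcription factors, and late response genes follow that encode secreted and synaptic proteins. Described here are 9 such genes in the mouse hippocampal CA1 region, whose principal cells are excitatory pyramidal neurons and which spatial memory depends on, out of 10245 gene symbols in the table and 2418 genes tested. The early response genes were Fos, Egr2, Klf10, Ier2, Ier5 and Fbxo33, and the late response genes were Bdnf, Nptx2 and Rgs4. They were chosen by name, with their levels in knockout and control mice already known. The difference between the genotypes is therefore given as a description, without a test. All 9 genes passed the filter on low values, a mean of at least 0.5 FPKM in all libraries, but Egr2 passed it only through the knockout libraries.

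Dorsal CA1 of both hemispheres was pooled for each mouse, and RNA-Seq was performed on 6 Tip60 conditional knockout (Tip60 cKO) mice and 6 control mice. Tip60 cKO mice carried a floxed Tip60 gene on both alleles and the CaMKCreERT2 transgene, a tamoxifen-inducible Cre recombinase that acts in excitatory neurons of the forebrain and not in glia. Control mice were littermates with the floxed alleles and without Cre. All mice are labelled as C57BL/6N males, all received tamoxifen at 2 months of age, and all were killed 10 days after the last injection. Tip60, with the gene symbol Kat5, encodes an acetyltransferase that acetylates histones and other proteins. Since controls had no Cre, what Cre may do by itself and what loss of Tip60 does cannot be told apart. Kat5 was not analysed here.

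Levels are FPKM, fragments scaled to transcript length and to the total mapped, so that levels of different genes can be compared per length. Estimated depth was 30.7 to 34.9 M reads in Tip60 cKO libraries and 30.4 to 37.1 M reads in control libraries. In the fit over all genes 480 of 2418 genes (19.9%) were called higher in Tip60 cKO mice and 157 (6.49%) lower. With median-ratio scaling the split was 277 higher and 279 lower. The Tip60 cKO library named replicate 1 held 201 FPKM of Ttr, a transport protein of the choroid plexus, against 0.911 FPKM or less in the other 11 libraries. Of 9 marker genes fixed for CA1 pyramidal neurons only Pou3f1, a transcription factor, was in the table. Its level was 55.0 ± 5.87 FPKM in Tip60 cKO mice and 28.9 ± 2.31 FPKM in controls (SD, n = 6 each). The labelled tissue could thus be checked against 1 marker only, which was itself called higher in Tip60 cKO mice. The 4 tested markers of dentate granule cells, which belong to a neighbouring region, summed to 5.94 to 15.5 FPKM in Tip60 cKO libraries and 6.13 to 20.5 FPKM in control libraries. In bulk tissue, fewer cells of a type and less RNA per cell cannot be told apart.

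The DNA before the start of these genes is where activity-regulated factors are known to bind in many of them. RefSeq promoter windows on GRCm38.p6 were at hand for 6 of the 9 genes, and 4 of them held the core of the cAMP response element (CRE) that CREB binds. These 4 windows are shown, the 250 bases before an annotated start, 5′ to 3′ on the strand of the gene. Capitals mark the CRE core (TGACG, or CGTCA on the other strand), the TATA motif (TATAAA, coding strand only) and the CArG box that SRF binds.
Fos, chr12:85473640-85473889, plus strand: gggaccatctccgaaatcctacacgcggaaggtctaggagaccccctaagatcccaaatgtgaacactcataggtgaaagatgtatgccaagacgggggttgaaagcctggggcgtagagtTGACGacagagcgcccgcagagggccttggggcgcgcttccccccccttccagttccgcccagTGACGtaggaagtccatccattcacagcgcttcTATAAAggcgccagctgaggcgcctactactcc
Egr2, chr10:67537619-67537868, plus strand: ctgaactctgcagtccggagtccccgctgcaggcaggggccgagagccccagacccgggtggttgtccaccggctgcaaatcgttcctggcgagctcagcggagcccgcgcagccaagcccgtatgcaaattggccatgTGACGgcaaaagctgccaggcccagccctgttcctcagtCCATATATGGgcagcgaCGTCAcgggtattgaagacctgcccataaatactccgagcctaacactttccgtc
Bdnf, chr2:109692186-109692435, plus strand: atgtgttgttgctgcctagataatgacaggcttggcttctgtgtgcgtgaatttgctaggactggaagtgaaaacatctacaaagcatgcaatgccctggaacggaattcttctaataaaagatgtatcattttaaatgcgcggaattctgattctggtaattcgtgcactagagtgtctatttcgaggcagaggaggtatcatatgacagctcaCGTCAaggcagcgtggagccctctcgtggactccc
Rgs4, chr1:169747643-169747892, minus strand: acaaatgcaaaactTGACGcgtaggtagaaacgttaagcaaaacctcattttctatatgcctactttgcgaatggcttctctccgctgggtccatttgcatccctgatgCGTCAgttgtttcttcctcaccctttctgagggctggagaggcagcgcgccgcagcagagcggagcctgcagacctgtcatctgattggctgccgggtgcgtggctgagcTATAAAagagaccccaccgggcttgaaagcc

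Fos had 2 CRE cores, which began 129 and 66 bases before the start, and a TATA motif 33 bases before it. In Egr2 the cores began 111 and 55 bases before the start, and the CArG box, written with capitals between them, began 72 bases before it. The Bdnf window, 1 of 7 annotated for a gene with many alternative first exons, held 1 core, 35 bases before the start. It was shown because it alone of the Bdnf windows held the core, which 17.8% of all 32851 windows held. Rgs4 had cores at 236 and 141 bases and a TATA motif at 31 bases before its start. Ier5 and Fbxo33, with 1 window each, held none of the motifs searched. Among 27025 genes with a window, 19.8% held the CRE core on either strand in at least 1 window, 8.94% the TATA motif and 1.62% the CArG box. A gene with more windows, such as Bdnf with 7 or Egr2 with 5, had more chances to hold a motif. The full palindromic CRE (TGACGTCA) was found in none of the 6 genes and in 1.77% of all genes, and the EGR motif (GCGGGGGCG) in none of the 6 and in 2.93%. An AP-1 motif (TGANTCA), which Fos proteins bind together with Jun proteins, was found in another Bdnf window and in 7.82% of all genes. The full CRE contains the core, so these counts overlap. A match is a description of the letters and not evidence of binding.

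**Figure D1:**
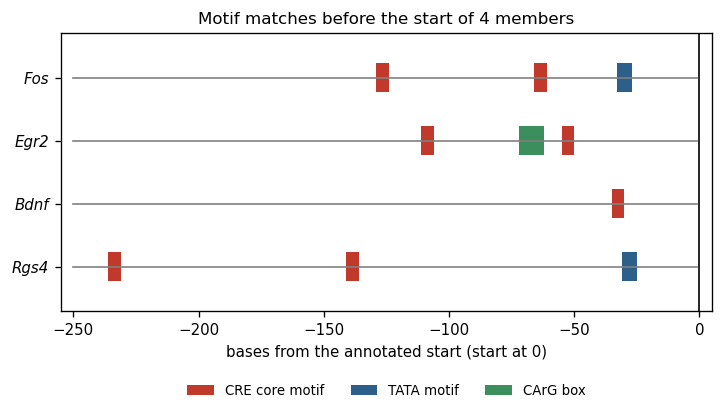
Motif matches in the 4 promoter windows printed above. The horizontal axis gives bases from the annotated start, each gray line is the 250 bases of a window, and bars mark the CRE core, the CArG box and the TATA motif. The CRE cores nearest to the start begin 66 bases before it in Fos, 55 in Egr2, 35 in Bdnf and 141 in Rgs4.

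Of the 9 genes, 8 were higher in every Tip60 cKO library than in every control library, and Klf10 was lower in every one. Over all 2418 genes, 25.2% lay above the controls and 8.31% below them in this way. Because the 9 genes were chosen on this difference, nothing is read from their count.

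Fos encodes a basic leucine zipper protein that joins Jun proteins to form the AP-1 factor, and it is the most widely used marker of recently active neurons. Its level in Tip60 cKO mice was 5.61 FPKM at the lowest, 6.43 FPKM at the median and 7.56 FPKM at the highest, against 0.758, 1.17 and 2.39 FPKM in controls. The groups were far apart, with the lowest Tip60 cKO library 2.34 times the highest control library. The means were 6.53 ± 0.768 FPKM in Tip60 cKO mice and 1.30 ± 0.606 FPKM in controls (SD, n = 6 each), a ratio of 5.0 and a difference of 1.74 ± 0.14 (SE) on the log2(FPKM + 1) scale. Spread differed as well. The coefficient of variation was 11.8% in Tip60 cKO mice and 46.4% in controls, where counting error from an estimated 58.5 to 180 reads alone would give 11%. The highest Fos level in controls was 3.15 times the lowest. Without the control mouse named replicate 6, which held the highest level, the coefficient of variation in the other 5 controls was 29.8% and the highest level was 2.02 times the lowest.

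Egr2 encodes a zinc finger transcription factor of the EGR family that is known for low levels in resting neurons. It was the least abundant of the 9 genes in both genotypes and had the largest ratio of means. Tip60 cKO libraries held 1.67 FPKM at the lowest, 1.8 FPKM at the median and 2.01 FPKM at the highest, against 0.158, 0.225 and 0.374 FPKM in control libraries. No library of either genotype came near the other genotype, the nearest values being 4.47-fold apart. The means were 1.82 ± 0.142 FPKM in Tip60 cKO mice and 0.237 ± 0.0778 FPKM in controls (SD, n = 6 each), a ratio of 7.71. The difference on the log2(FPKM + 1) scale was 1.19 ± 0.05 (SE), which understates the ratio because the added 1 is larger than the control level. Control values rest on an estimated 17.2 to 33.8 reads per library, for which counting error alone gives a coefficient of variation of 21.0%, and the measured value was 32.9%. In Tip60 cKO libraries the measured 7.81% and the 7.54% from counting error were nearly the same.

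Klf10, also called TIEG1, encodes a zinc finger factor first known as a gene induced by TGF-beta, and among the early response genes it was the only one of the 6 that was lower in Tip60 cKO mice. Levels in Tip60 cKO libraries ran between 4.22 and 6.03 FPKM with a median of 5.62 FPKM, against 6.08 to 8.63 FPKM with a median of 6.84 FPKM in controls. The groups only just failed to overlap, with the highest Tip60 cKO library at 0.993 of the lowest control library. Klf10 averaged 5.36 ± 0.723 FPKM in Tip60 cKO mice and 7.20 ± 1.02 FPKM in controls (SD, n = 6 each), a ratio of 0.745 and a log2 difference of -0.37 ± 0.09 (SE).

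Ier2 and Ier5 are relatives that encode small nuclear proteins induced by growth factors and by neuronal activity. Ier2 reached 3.15 FPKM at the lowest, 3.51 FPKM at the median and 4.26 FPKM at the highest in Tip60 cKO mice, against 1.61, 1.87 and 2.65 FPKM in controls. Ier5 stood at 17.0, 21.0 and 22.1 FPKM in Tip60 cKO mice, against 8.16, 8.76 and 9.60 FPKM in controls. Neither gene overlapped between genotypes, and the gap was wider for Ier5, with a nearest ratio of 1.77 and 1.19 for Ier2. The means of Ier5 were 20.5 ± 2.02 FPKM in Tip60 cKO mice and 8.83 ± 0.626 FPKM in controls, a ratio of 2.32 and a log2 difference of 1.12 ± 0.06 (SE). For Ier2 they were 3.58 ± 0.393 FPKM in Tip60 cKO mice and 2.00 ± 0.416 FPKM in controls (SD, n = 6 each), a ratio of 1.79 and a log2 difference of 0.62 ± 0.08 (SE).

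Fbxo33 encodes an F-box protein, the part of an SCF ubiquitin ligase that recognises its substrate. It was the steadiest of the 9 genes among Tip60 cKO mice, at 14.9 FPKM at the lowest, 15.3 FPKM at the median and 16.3 FPKM at the highest, against 9.27, 10.5 and 11.3 FPKM in controls. Every Tip60 cKO library was at least 1.32 times the highest control library. The mean was 15.5 ± 0.608 FPKM in Tip60 cKO mice and 10.3 ± 0.761 FPKM in controls (SD, n = 6 each), a ratio of 1.5 and a log2 difference of 0.54 ± 0.05 (SE).

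Among the late response genes, Bdnf encodes brain-derived neurotrophic factor, a secreted protein that acts through the receptor TrkB on synapses and survival. Tip60 cKO libraries held 8.49 FPKM at the lowest, 10.4 FPKM at the median and 11.5 FPKM at the highest, against 6.67, 7.13 and 8.23 FPKM in controls. The groups lay close together, with the nearest libraries 1.03-fold apart, and they overlapped under median-ratio and upper-quartile scaling. Bdnf averaged 10.3 ± 1.2 FPKM in Tip60 cKO mice and 7.28 ± 0.617 FPKM in controls (SD, n = 6 each), which is the smallest ratio among the 8 genes that were higher, at 1.41, with a log2 difference of 0.44 ± 0.07 (SE). A predicted gene, Gm45346, overlaps Bdnf on the opposite strand, and without known strandedness of the libraries reads of the pair cannot be told apart.

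Nptx2, also called Narp, encodes a secreted pentraxin that gathers AMPA receptors at excitatory synapses on interneurons. It was at 30.5 FPKM at the lowest, 35.7 FPKM at the median and 40.2 FPKM at the highest in Tip60 cKO mice, against 17.0, 19.7 and 23.6 FPKM in controls. All Tip60 cKO libraries lay above all controls, the nearest being 1.29-fold apart. The means were 35.0 ± 3.82 FPKM in Tip60 cKO mice and 19.7 ± 2.28 FPKM in controls (SD, n = 6 each), a ratio of 1.77 and a log2 difference of 0.79 ± 0.08 (SE).

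Rgs4 encodes a GTPase-activating protein that shortens signalling by Gi and Gq coupled receptors, and it was the most abundant of the 9 genes in both genotypes. Its level was 60.2 FPKM at the lowest, 75.7 FPKM at the median and 87.9 FPKM at the highest in Tip60 cKO mice, against 33.7, 39.2 and 41.6 FPKM in controls. The groups did not overlap, although Rgs4 varied more among Tip60 cKO mice (coefficient of variation 13.8%) than among controls (7.17%). The means were 75.0 ± 10.4 FPKM in Tip60 cKO mice and 38.4 ± 2.76 FPKM in controls (SD, n = 6 each), a ratio of 1.95, a difference of 36.6 FPKM and a log2 difference of 0.94 ± 0.08 (SE).

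**Figure D2:**
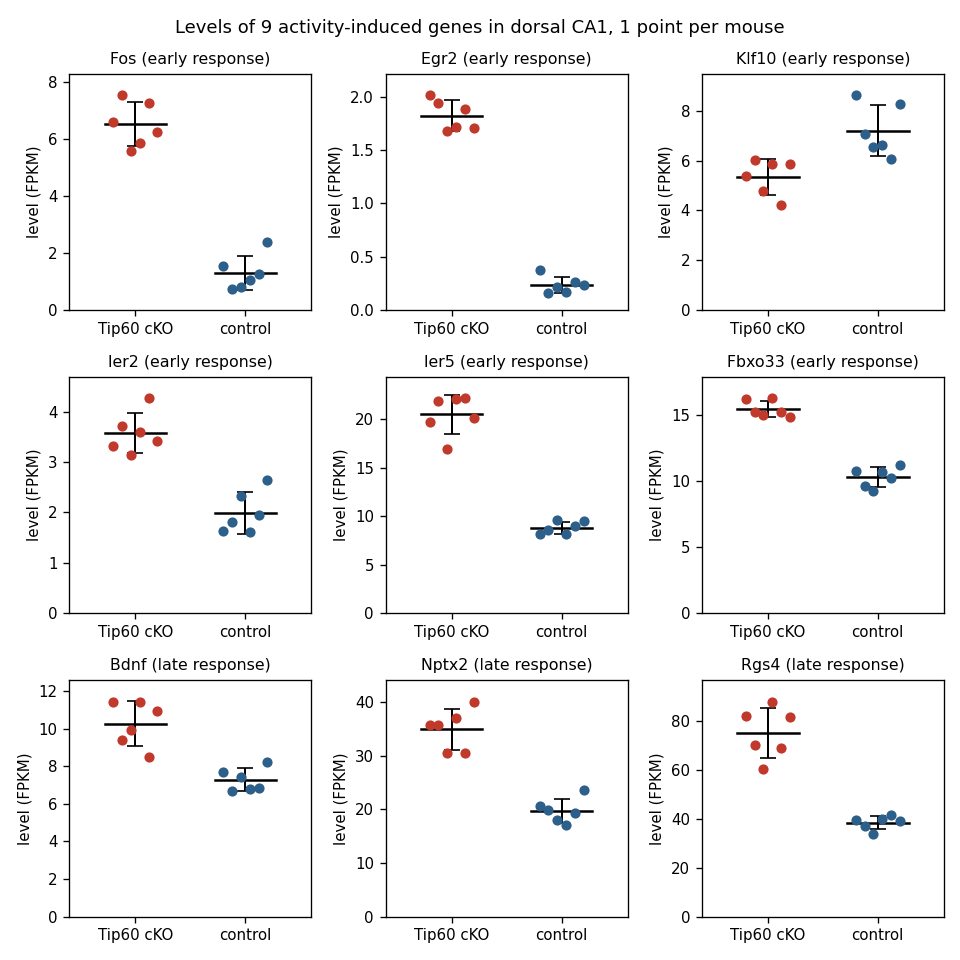
Level of each of the 9 genes in FPKM (vertical axes, starting at 0) in 6 Tip60 cKO mice on the left and 6 control mice on the right of each panel, with 1 point per mouse, a line at the mean and a bar of ± 1 SD. Fos and Egr2 lie farthest apart (means of 6.53 and 1.82 FPKM in Tip60 cKO mice, 1.30 and 0.237 FPKM in controls), while Klf10 is lower in Tip60 cKO mice and nearly touches the controls.

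Early and late response genes overlapped in the size of their difference. Ratios of Tip60 cKO to control means ran between 0.745 and 7.71 over the 6 early genes, with a median of 2.06, and between 1.41 and 1.95 over the 3 late genes, with a median of 1.77. The late genes were thus bracketed by early genes on both sides: Ier2, with a ratio of 1.79, stood next to Nptx2, Fbxo33, with 1.5, stood next to Bdnf, and only Egr2, Fos and Ier5 exceeded Rgs4. In level, the largest absolute difference belonged to Rgs4 and the smallest ones to Ier2 and Egr2, at 1.58 and 1.59 FPKM.

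The order of levels differed in places. In Tip60 cKO mice it was Rgs4, Nptx2, Ier5, Fbxo33, Bdnf, Fos, Klf10, Ier2 and Egr2 from high to low, and neighbours had separate ranges except for Fos with Klf10 and Klf10 with Ier2. In controls Fbxo33 stood above Ier5, with overlapping ranges, and Fos came after Klf10 and Ier2. Ranges of neighbours overlapped in controls for Fbxo33 with Ier5, Ier5 with Bdnf, Bdnf with Klf10 and Ier2 with Fos. Within single control mice, Ier2 exceeded Fos in all 6, and Fbxo33 exceeded Ier5 in 5 of 6. In Tip60 cKO mice Ier5 exceeded Fbxo33 in all 6.

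To place the 9 genes in the wider activity response, 3 further lists were examined in the fit over all genes, in which a gene was called at an adjusted p under 0.05 by limma with a fold of FPKM + 1 over 1.2. Pooled, the lists held 87 genes, of which 28 were tested, and the shares cover the tested genes only. Of these, 9 (32.1%) were called higher and 1 (3.57%) lower in Tip60 cKO mice, against 19.9% higher and 6.49% lower over all genes tested. With median-ratio scaling 7 were called higher, and with upper-quartile scaling 8, against 277 of 2407 and 334 of 2410 over all genes tested. The median log2 difference of the 28 genes was 0.22, against 0.09 over all genes tested. Several genes central to the activity response, such as Arc and Npas4, were not analysed here.

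Besides Fos, Egr2 and Klf10, 7 genes were tested from a list of early transcription factors that also held Ier3. Of these 7, 2 (28.6%) rose and none fell. Egr1, the EGR family member with high resting levels in CA1, averaged 57.5 ± 6.03 FPKM in Tip60 cKO mice and 41.3 ± 6.83 FPKM in controls (SD, n = 6 each), a ratio of 1.39 with an adjusted p of 0.00101 (limma), and the ranges overlapped, with Tip60 cKO libraries beginning at 51.0 FPKM and controls reaching 53.4 FPKM. Jun, the AP-1 partner of Fos, averaged 11.4 ± 1.51 FPKM in Tip60 cKO mice and 8.60 ± 1.68 FPKM in controls, with an adjusted p of 0.0137 (limma) that became 0.05045 with median-ratio scaling. Junb, another AP-1 partner, was at 18.2 ± 2.15 FPKM in Tip60 cKO mice and 16.8 ± 3.48 FPKM in controls, a log2 difference of 0.12 ± 0.11 (SE), and was not called (adjusted p of 0.388, limma). The EGR and AP-1 families therefore held members with ratios as different as 7.71 for Egr2 and 1.39 for Egr1, or 5.0 for Fos and 1.08 for Junb.

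Of 14 tested early genes that do not encode transcription factors, 6 (42.9%) rose and none fell. The largest difference was that of Sgk1, a kinase also induced by glucocorticoids, at 34.3 ± 6.94 FPKM in Tip60 cKO mice and 17.7 ± 2.75 FPKM in controls (SD, n = 6 each), with a log2 difference of 0.91 ± 0.13 (SE) and an adjusted p of 7.86e-05 (limma). Gadd45g, a stress and growth arrest protein, stood at 16.6 ± 1.39 FPKM in Tip60 cKO mice and 11.2 ± 1.30 FPKM in controls. Sik1, a kinase that restrains CREB coactivators, was at 1.74 ± 0.153 FPKM in Tip60 cKO mice and 0.930 ± 0.246 FPKM in controls, and Tiparp, a poly(ADP-ribose) polymerase family member, was at 4.92 ± 0.246 FPKM in Tip60 cKO mice and 3.47 ± 0.345 FPKM in controls. Their adjusted p was 1.24e-05 for Gadd45g, 4.25e-05 for Sik1 and 1.22e-05 for Tiparp (limma). None of Sgk1, Gadd45g, Sik1 and Tiparp overlapped between the genotypes. The other 2 that rose were Arl4d and Btg2.

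Of 7 tested late response and effector genes besides the 3 described, 1 (14.3%) rose and 1 (14.3%) fell. Spp1, the secreted protein osteopontin, averaged 1.88 ± 0.484 FPKM in Tip60 cKO mice and 1.06 ± 0.200 FPKM in controls (SD, n = 6 each; adjusted p of 0.00143, limma). Nptx1, the constitutive partner of Nptx2 in pentraxin complexes, fell to 29.9 ± 2.56 FPKM in Tip60 cKO mice, against 48.6 ± 5.10 FPKM in controls, a log2 difference of -0.68 ± 0.07 (SE; adjusted p of 8.05e-07, limma), and the groups did not overlap. The 2 secreted pentraxins thus moved in opposite directions, and in Tip60 cKO mice Nptx2 exceeded Nptx1 in mean level, while in controls Nptx1 exceeded Nptx2.

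**Figure D3:**
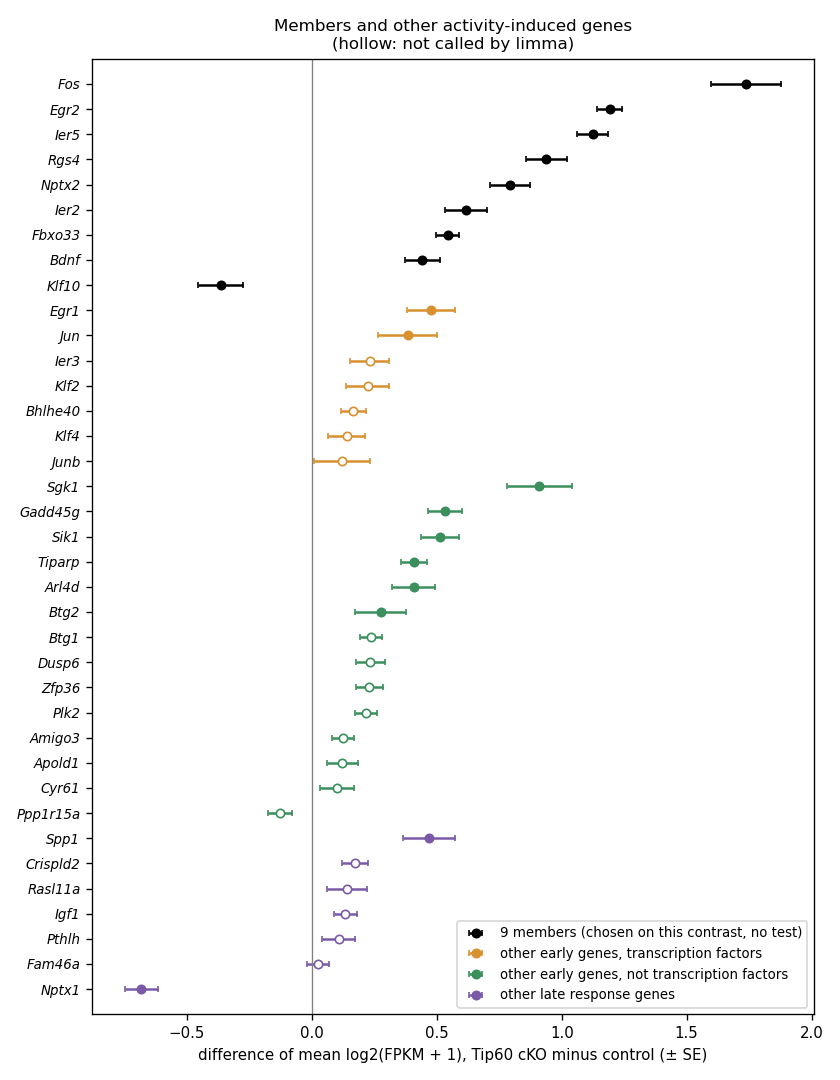
Difference of mean log2(FPKM + 1), Tip60 cKO minus control, with its SE (horizontal axis), for the 9 genes in black, which were chosen on this contrast, and for 28 other tested activity-induced genes. The 9 genes are all drawn filled, without a test. Among the other 28, filled points were called by limma and hollow points were not. Fos, at 1.74, and Egr2, at 1.19, lie farthest right. Klf10 and Nptx1 lie left of 0, as does Ppp1r15a, which was not called, at -0.13.

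There were 6 further lists, of relatives of the 9 genes and of signalling from calcium and cAMP to the nucleus. Not counting genes that are also in the 3 lists above, such as Nptx1, they held 167 genes, of which 26 were tested. Of these, 4 (15.4%) were called lower and 1 (3.85%) higher, against 6.49% lower and 19.9% higher over all genes tested. Of 46 signalling genes 7 were tested, of which Map2k1 (MEK1, the kinase upstream of ERK) and Prkaca (a catalytic subunit of protein kinase A) fell. Map2k1 was at 66.1 ± 2.06 FPKM in Tip60 cKO mice and 91.2 ± 6.35 FPKM in controls (SD, n = 6 each; adjusted p of 5.35e-07, limma). Prkaca stood at 46.6 ± 2.01 FPKM in Tip60 cKO mice and 61.3 ± 3.23 FPKM in controls, with an adjusted p of 1.32e-06 (limma), and for both kinases all Tip60 cKO libraries lay below all controls.

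Of 3 tested genes of the neurotrophin list, Ngfr, the p75 neurotrophin receptor, was the 1 gene counted as higher (0.674 ± 0.0724 FPKM in Tip60 cKO mice and 0.331 ± 0.0748 FPKM in controls), and Ntf3, the neurotrophin NT-3, fell (2.19 ± 0.740 FPKM in Tip60 cKO mice and 3.20 ± 0.330 FPKM in controls, SD, n = 6 each), with an adjusted p of 0.0125 for Ntf3 (limma). Ngfr passed the filter on low values only through the Tip60 cKO libraries, in which it was higher, so its call is given no weight and no p. It was below the filter when the minimum was 1 FPKM, under median-ratio or upper-quartile scaling, or when any 1 Tip60 cKO library was left out. Of 17 genes on the list of neuronal pentraxin and AMPA receptor partners 2 were tested, and both fell. They were Nptx1 and Cacng5, an AMPA receptor auxiliary subunit that is also a marker of CA2. Cacng5 was at 2.69 ± 0.402 FPKM in Tip60 cKO mice and 5.38 ± 0.713 FPKM in controls (adjusted p of 1.74e-06, limma). None of 3 RGS list genes, 8 F-box and SCF genes or 4 KLF and SP factors was called by limma. This depended on the setting for 2 of these lists. With median-ratio or upper-quartile scaling 1 KLF or SP factor was called lower. With a pseudocount of 0.1 or 0.5, 2 were called lower, and 1 RGS list gene was called higher.

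The next question was whether the 9 genes varied together from mouse to mouse. Correlations of log2(FPKM + 1) were computed within each genotype, over 6 mice, so that the difference between genotypes did not enter. There were 72 relations, 36 pairs in each genotype, and 4 of them had an unadjusted p under 0.05 by Pearson's r and 3 by Spearman's rho (two-sided exact permutation tests). None passed after Benjamini-Hochberg adjustment, and the smallest adjusted p was 0.30 for r and 0.60 for rho. With 6 mice a permutation p cannot go below 0.00139, so that a lone pair among 72 relations could reach 0.1 at best. The correlations are therefore a description of these libraries.

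The closest pair was Ier2 with Ier5. In Tip60 cKO mice r was 0.80, and in controls r was 0.95 (exact permutation p of 0.00417, adjusted p of 0.30) with a rho of 0.94 (exact permutation p of 0.0167, adjusted p of 0.60). Without the 2 controls farthest from the median of Ier2, r was 0.995. Klf10 with Nptx2 came next, going by the lower r of the genotypes, with r = 0.88 in Tip60 cKO mice (exact permutation p of 0.0236, adjusted p of 0.567; rho = 0.83, exact permutation p of 0.0583, adjusted p of 0.795) and 0.71 in controls. Over all 6 mice of a genotype this pair rose and fell together, although Klf10 was lower and Nptx2 higher in Tip60 cKO mice. Without the 2 mice farthest from the median of Klf10, r was 0.30 in Tip60 cKO mice and 0.11 in controls. The relation thus rests on those mice in both genotypes.

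Of the 36 pairs, 19 had r of opposite sign in the 2 genotypes, the widest gaps being those of Fos and Ier2 with Bdnf. Ier2 with Bdnf had r = -0.68 in Tip60 cKO mice and 0.62 in controls. Without the 2 mice farthest from the median of Ier2, r was -0.72 in Tip60 cKO mice and -0.44 in controls. The opposite sign of this pair thus rests on 2 control mice. Fos with Bdnf had r = -0.59 in Tip60 cKO mice and 0.79 in controls, and Fos with Fbxo33 had r = -0.12 in Tip60 cKO mice and 0.88 in controls. In controls the exact permutation p was 0.0458 for Fos with Bdnf and 0.0194 for Fos with Fbxo33, with adjusted p of 0.586 and 0.567. The Spearman values in controls were 0.83 (exact permutation p of 0.0583, adjusted p of 0.795) for Fos with Bdnf and 0.89 (exact permutation p of 0.0333, adjusted p of 0.795) for Fos with Fbxo33. Without the 2 controls farthest from the median of Fos, r was 0.23 for Bdnf and 0.83 for Fbxo33, so the relation with Bdnf rests on those mice. The difference of r between genotypes was not tested.

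One control mouse, named replicate 6, held the highest control level of 5 of the 9 genes: Fos, Ier2, Fbxo33, Bdnf and Nptx2. Without this mouse r in the other 5 controls was 0.47 for Fos with Bdnf, 0.38 for Fos with Nptx2 and 0.86 for Fos with Fbxo33. Among Tip60 cKO mice, replicate 3 held the lowest level of Fos, Egr2, Ier2, Ier5 and Rgs4, and replicate 5 that of Klf10, Bdnf and Nptx2. No single Tip60 cKO mouse was highest in more than 2 of the genes.

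By class, the 3 pairs of late response genes had a median r of 0.72 in Tip60 cKO mice and 0.21 in controls. The 18 pairs of an early with a late gene had a median r of 0.05 in Tip60 cKO mice, 10 of them positive, and 0.52 in controls, 16 of them positive. For the 15 pairs of early genes the median r was 0.30 in Tip60 cKO mice and 0.40 in controls. Several of these medians turned in sign with median-ratio scaling. The median was then -0.32 in Tip60 cKO mice and 0.54 in controls for early with late genes, -0.02 in Tip60 cKO mice and 0.36 in controls for early genes, and 0.64 in Tip60 cKO mice and -0.04 in controls for late genes. Of the 36 pairs, 16 were positive and 1 negative in both genotypes, and 6 exceeded 0.5 in both. All of these values share genes and libraries and are not independent of each other.

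**Figure D4:**
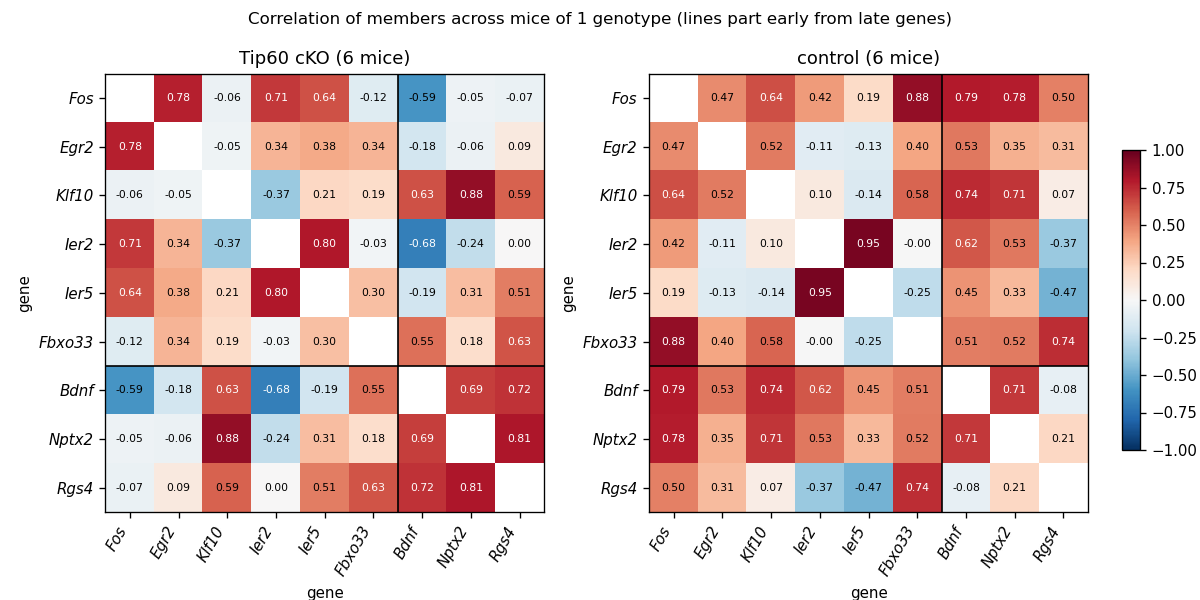
Pearson r of log2(FPKM + 1) between the 9 genes (both axes) across 6 Tip60 cKO mice on the left and 6 control mice on the right, in a color scale between -1 and 1. Black lines part early from late response genes. Fos with Bdnf is negative in Tip60 cKO mice (-0.59) and positive in controls (0.79), while Ier2 with Ier5 is high in both (0.80 and 0.95).

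A search through the 2005 genes that averaged 1 FPKM or more gave, for each of the 9 genes, the gene with the most similar deviations from the genotype means over the 12 libraries. For Fos this was Junb (r = 0.88 over 12 libraries, 0.90 within Tip60 cKO mice and 0.88 within controls), followed by Thsd7b (0.88) and Pnrc1 (0.86). Thsd7b had r = 0.41 within Tip60 cKO mice and 0.93 within controls, and Pnrc1 had 0.91 and 0.88. Junb thus followed Fos from mouse to mouse within each genotype, while its mean differed little between genotypes. The control mouse named replicate 6 had the highest Junb level of all 12 libraries, 23.3 FPKM, and without it r within controls was 0.58. For Bdnf the most similar genes were Sco1, a copper chaperone of cytochrome c oxidase, Cpd, a carboxypeptidase, and Tmed7, a protein of secretory vesicles, with r between 0.82 and 0.83. Within Tip60 cKO mice r was 0.89, 0.95 and 0.89 in this order, and within controls it was lower, at 0.69, 0.54 and 0.65.

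Fbxo30, an F-box protein, was most similar both to Nptx2 (r = 0.96) and to Klf10 (r = 0.82). Its own level was 1.29 ± 0.112 FPKM in Tip60 cKO mice and 1.13 ± 0.0969 FPKM in controls (SD, n = 6 each) and was not called. The others were Rdh14 for Egr2 (0.78), Pcsk1n for Ier2 (0.92), Mrpl52 for Ier5 (0.91), Zfp148 for Fbxo33 (0.91) and Fam102b for Rgs4 (0.94). Each is the highest of 2005 values, which share libraries and their depth, and no p is given.

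**Figure D5:**
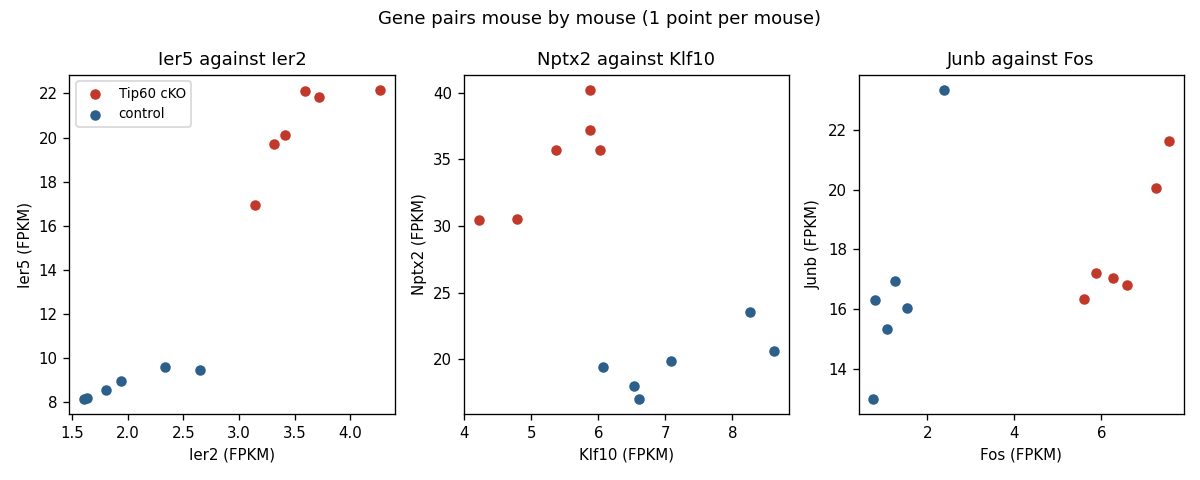
Levels in FPKM of Ier5 against Ier2, Nptx2 against Klf10 and Junb against Fos, with 1 point per mouse, Tip60 cKO in red and control in blue. In all 3 panels the genotypes form separate clouds that run in the same direction; in the Fos panel the clouds are apart along Fos only, with Junb between 16.3 and 21.7 FPKM in Tip60 cKO mice and 12.98 and 23.3 FPKM in controls.

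Levels of some cell type markers differed between genotypes beside the 9 genes. Of 13 interneuron markers 4 were tested and 3 rose: Sst, Npy and Slc32a1. The 4 summed to 756 to 823 FPKM in Tip60 cKO libraries and 379 to 442 FPKM in control libraries, and none of them was at 0. Of 13 microglia markers 6 were tested, of which 3 rose and 1 fell, and their sum was 118 to 153 FPKM in Tip60 cKO libraries and 107 to 125 FPKM in control libraries. Of 11 endothelial and mural markers 4 were tested and 1 rose, with sums of 29.6 to 35.1 FPKM in Tip60 cKO libraries and 26.9 to 32.0 FPKM in control libraries. Of 8 markers of meninges and fibroblasts 4 were tested and 2 rose, Dcn and Mgp, and the list summed to 29.6 to 38.7 FPKM in Tip60 cKO libraries and 20.5 to 29.7 FPKM in control libraries. Of 9 markers of CA2 and CA3 pyramidal neurons 2 were tested and 1 fell, Cacng5, with sums of 12.2 to 19.96 FPKM in Tip60 cKO libraries and 18.2 to 27.6 FPKM in control libraries. The 1 tested marker of CA1 pyramidal neurons, Pou3f1, was called higher. Of 9 markers of choroid plexus and ependyma 3 were tested and 1 was called higher, Dynlrb2. It passed the filter on low values only through the Tip60 cKO libraries, so its call is given no weight. Over all genes tested, 19.9% were called higher and 6.49% lower. None of the tested markers of dentate granule cells, astrocytes and oligodendrocytes was called by limma. The part of these cells in the differences of the 9 genes was not tested.

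Within a genotype, the 9 genes were set against estimated depth and against the mean level of the interneuron, microglia, and endothelial and mural lists, which gave 72 further relations. By Pearson's r 4 had an unadjusted exact permutation p under 0.05, and none passed after adjustment. The smallest adjusted p was 0.1, for Nptx2 with interneuron markers in controls (r = -0.93, exact permutation p of 0.00139, the smallest possible; rho = -1, exact permutation p of 0.00278, adjusted p of 0.2; r = -0.87 without the 2 mice farthest from the median of the markers). In Tip60 cKO mice the same pair had r = 0.55. Sst, Npy and Slc32a1 were higher in Tip60 cKO mice, as Nptx2 was. The remaining marker, Calb2, was at 3.15 ± 0.872 FPKM in Tip60 cKO mice and 3.13 ± 0.793 FPKM in controls (SD, n = 6 each). The mean of the 4 markers thus ran against Nptx2 within controls and with it between genotypes. Which markers carried the relation within controls was not tested. Egr2 in controls fell with estimated depth (r = -0.96, exact permutation p of 0.00556, adjusted p of 0.2). Its rho was -0.89 (exact permutation p of 0.0333, adjusted p of 0.923), and r was -0.84 without the 2 mice farthest from the median depth. The control level of Egr2 rests on at most an estimated 33.8 reads. Depth was estimated from the smallest FPKM values of the same libraries, so it is not independent of the levels set against it.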

How the data were processed

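The authors deposited 1 table of FPKM values for 12 libraries, scaled by transcript length and sequencing depth. The mm9 build and the tools TopHat2 2.0.8, CASAVA 1.8.2, bedtools 2.16.2 and FastQC 0.10.0 are listed in the submitters' processing notes, without their roles. For the FPKM values, program and annotation are not given in the sources used, nor is strandedness. The study's own analysis used other software and counts and is a separate processing. Libraries were TruSeq libraries of total RNA.

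Of 10383 rows, 100 exact repeats were removed and values that shared a symbol were added up. Left out were 527 small RNAs, 2416 genes that were 0 throughout and 42 with isolated 0 values, which left 7260 genes. The 2418 that averaged 0.5 FPKM or more entered the test. Values of log2(FPKM + 1) were fitted with limma 3.58.1 (R 4.3.3; trend and robust options, genotype as the only term) in 6 against 6 libraries, and p-values were adjusted over all 2418 genes by Benjamini-Hochberg. This replaced a count test, because the values are not counts. Depth, and from it reads per gene, was estimated from the pile of the smallest FPKM values times transcript length over 1856 genes, so it is approximate. Limits from counting cover counting error only. Replicate numbers follow accession order and only name libraries. Each library is taken as 1 mouse, since the study's methods pool the hemispheres of a mouse and name no other pooling; p-values measure the spread between these libraries.

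The 9 genes and all lists were chosen with earlier results of these data known. Named are the 9 genes, up to 4 called genes of each list in its main direction and up to 2 in the other by size of log2 difference, and the gene most similar to each of the 9 (3 for Fos and Bdnf); Junb, Fbxo30, Arl4d, Btg2, Ttr, Pou3f1 and the markers were also named, after their values were seen. Alternatives were 2 other scalings, pseudocounts of 0.1 and 0.5, no filter, a filter of 1 FPKM, a constant prior, leaving out each library, and correlations without log. Scripts were tested on simulated data.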

Additional observations from a re-analysis of the deposited data

How the results depend on the processing

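The direction of all 9 differences was kept under every alternative, and with 1 library left out, the one rich in Ttr included, the log2 difference ran between 1.67 and 1.86 for Fos, 1.17 and 1.22 for Egr2, -0.41 and -0.31 for Klf10 and 0.41 and 0.49 for Bdnf. The log2 difference of Fos was 2.33 with a pseudocount of 0.1 and 2.01 with 0.5, that of Egr2 was 2.54 and 1.66, and that of Ier2 was 0.83 with 0.1; a smaller pseudocount brings the scale nearer to the ratio of means. With median-ratio scaling Fbxo33 was at 0.43. Groups of all 9 genes stayed apart except Bdnf under median-ratio and upper-quartile scaling. Over all genes, calls were 277 higher and 279 lower with median-ratio scaling (49.8% of calls higher, 75.4% as reported) and 334 and 227 with upper-quartile scaling (59.5%); the cause was not tested. The count of activity-induced genes of the 3 further lists that rose was 7 with median-ratio scaling, 8 with upper-quartile scaling, 14 with a pseudocount of 0.1 and 8 to 11 with 1 library left out. Over all genes tested, the counts called higher were, in the same order, 277 of 2407, 334 of 2410, 661 of 2418 and 456 to 504. For the 6 lists of relatives and signalling, where 1 gene rose, the count was 0 with median-ratio or upper-quartile scaling or a filter of 1 FPKM, 2 with a pseudocount of 0.1 or 0.5, and 0 to 2 with 1 library left out. Without log there were 5 correlations at an unadjusted p under 0.05 and with median-ratio scaling 6, none after adjustment. Depth limits Egr2 most, since its control values rest on few reads. No paired analysis was possible because the labels carry no replicate numbers and tie no Tip60 cKO mouse to a control mouse.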
